A study of Homo sapiens with 3 samples.

Results

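The genes described here are 10 receptors of the tumour necrosis factor (TNF) receptor superfamily, NGFR, TNFRSF9, TNFRSF12A, TNFRSF21, TNFRSF11B, TNFRSF1B, LTBR, CD40, TNFRSF10D and RELT, out of 22439 named genes on the array. They were chosen from ratios seen in these same arrays, those of NGFR and TNFRSF9 above all, so their ratios are given as a description and no test was made on them. The cells were TK-10, an established human renal carcinoma line. They were kept for 48 h with vehicle (0.1% DMSO), with cordyceps at 750 μg/mL or with sunitinib at 10 μM. The sample labels name cordyceps, the genus of fungi from which the nucleoside analogue cordycepin comes, whereas the methods name cordycepin itself at another dose, and the label is used here. Sunitinib is an inhibitor of receptor tyrosine kinases. All cells shared a DMEM medium with zinc sulfate at 16.7 μM, troglitazone at 10 μM, nicotinamide at 10 mM and 10% FBS, so the vehicle cells had also received these agents. Each condition was measured on 1 single-colour array, so there is no replicate error, no p-value is given, and precision is limited by how few arrays there are.

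Receptors of this family are membrane proteins with cysteine-rich repeats outside the cell that bind trimeric ligands of the TNF superfamily. Some members carry a death domain, which can start apoptosis through adaptor proteins. Others recruit TRAF adaptors and lead to NF-κB and kinase signalling, and decoy members bind a ligand without passing on a full signal. NGFR is unusual in the family because its main ligands are the neurotrophins.

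The values below are processed signals, the spot intensity after background subtraction, each with the error that the image software estimated for the spot. Ratios were formed after each array had been divided by its own 75th percentile, which was 165 for vehicle, 138 for cordyceps and 78.2 for sunitinib, so a smaller signal on the sunitinib array need not be a lower ratio. A ratio was said to be beyond its technical limit when it exceeded the 95% limit of the combined error of the spots, which is not a replicate error. Of the 10 receptors, 7 were well above background on every array and 9 on at least 1 array. A gene was called higher or lower when it differed more than 2-fold from vehicle. Genes well above background on at least 1 array of a pair were compared, 14780 with cordyceps and 14905 with sunitinib. Of these, 879 and 910 gave no ratio. There the detected array was not the brighter once the undetected signal had been raised to the lowest detected signal of its array. Among all genes compared, 2.96% were higher and 2.75% lower on the cordyceps array, and 6.48% were higher and 6.44% lower on the sunitinib array. Past 2-fold in either direction were 5.7% and 12.9%. Scaling by the median moved the median log2 ratio of all genes by 0.23 with cordyceps and by -0.31 with sunitinib. The shift was -0.25 and -1.03 without any scaling, 0.15 and 0.27 without the background filter, and -0.11 for sunitinib after normexp background correction. With median scaling the share of higher genes among those called went from 51.8% to 77.0% with cordyceps and from 50.2% to 21.7% with sunitinib. It was 24.5% and 1.94% without any scaling, 62.6% and 80.7% without the background filter, and 28.3% for sunitinib after normexp background correction and 61.7% for sunitinib when positive and significant spots were admitted.

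Of the 9 receptors compared between cordyceps and vehicle, 1 was higher (NGFR), 1 was lower (TNFRSF11B) and 7 were within 2-fold, with a median log2 ratio of 0.06 against -0.0090 for all genes with a ratio. Of the 9 compared between sunitinib and vehicle, 0 were higher, 4 were lower (TNFRSF9, TNFRSF11B, TNFRSF12A and RELT), 4 were within 2-fold and NGFR gave no ratio. The 8 ratios with sunitinib had a median of -0.98 against -0.024 for all genes, with 1 above 0 and 7 below. The comparisons share the vehicle array, so a vehicle value that was off would move both. TNFRSF11B was the receptor called in both.

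**Figure D1:**
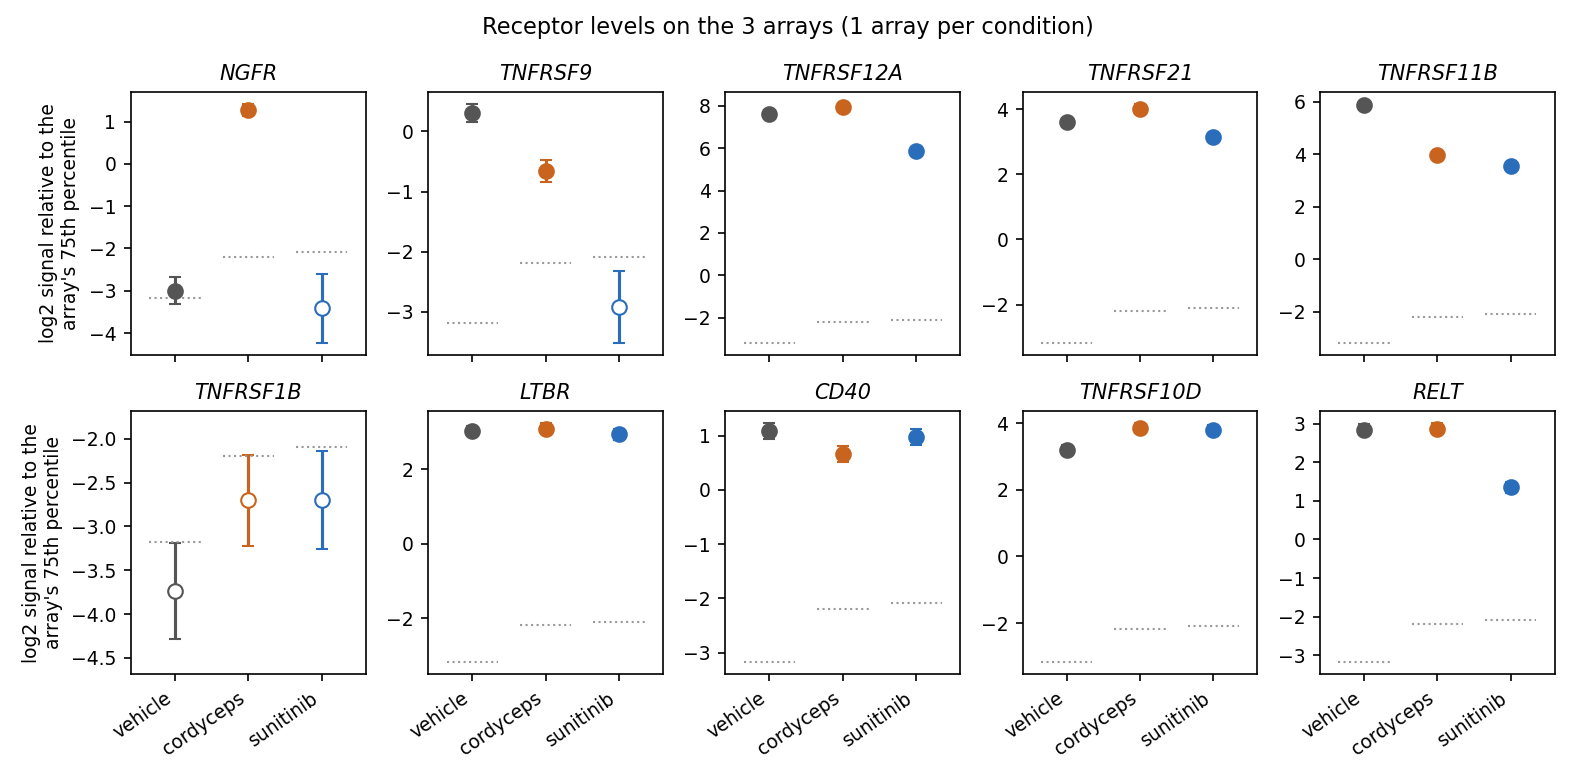
Log2 level of each receptor, relative to the 75th percentile of its array, on the vehicle, cordyceps and sunitinib arrays, with 1 array per condition, error bars of the image software's spot error, open points where the probe was not well above background and dotted lines at the lowest detected signal of each array. NGFR stands at 1.27 on the cordyceps array and close to or under the detection line on the other arrays, TNFRSF9 falls away on the sunitinib array, and LTBR lies at about the same level on every array.

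Among the receptors with a death domain, NGFR stood apart. NGFR, the low-affinity neurotrophin receptor that also pairs with Trk receptors and sortilin, read 20.6 ± 4.53 with vehicle, 332.7 ± 33.9 with cordyceps and 7.34 ± 4.17 with sunitinib. It was high on the cordyceps array alone, just above the lowest detected signal of 18.2 on the vehicle array, and not well above background on the sunitinib array. The log2 ratio of cordyceps over vehicle was 4.27 with a limit of 0.69, which is 19.3-fold higher, and 67 of the genes compared (0.453%) had a larger ratio. The vehicle signal was weak, and the ratio ranged from 2.45 after normexp background correction to 4.49 over the alternatives. The normexp correction adds 50 to every signal, which shrinks the ratio of a weak signal. Between sunitinib and vehicle no ratio could be given for NGFR. Cordyceps was at least 10.3-fold higher than sunitinib.

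TNFRSF21, also called death receptor 6, gave 1990 ± 199 with vehicle, 2240 ± 224 with cordyceps and 691 ± 69.2 with sunitinib. After scaling, its log2 ratio was 0.43 with cordyceps, just past a limit of 0.40, and -0.45 with sunitinib. It lay within 2-fold of vehicle in both comparisons, on opposite sides of 0. Over the alternatives the cordyceps ratio ran from 0.17 to 0.65, and it was below 0.40 under some of them. The sunitinib ratio ran from -1.53 without scaling, which is past 2-fold, to -0.45.

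Of 8 renal epithelial carcinoma markers, 7 were well above background on each array, the exception being CA9. CDH16, a kidney cadherin, had log2 levels of 3.03 with vehicle, 0.79 with cordyceps and 2.53 with sunitinib, and PAX8, a kidney lineage factor, had 5.38, 4.52 and 4.93. Both were thus lowest on the cordyceps array, and so were PAX2, KRT8 and VIM. EPCAM was instead highest there, at 2.73, 2.84 and 2.55, and KRT18 was lowest with vehicle, at 7.63, 7.75 and 7.99. On the cordyceps array NGFR was highest. TNFRSF11B was low there, at a log2 level of 3.99, and lower still with sunitinib, at 3.54. The part of these markers in the receptors’ ratios was not tested. In bulk RNA, fewer cells of a kind and less RNA per cell cannot be told apart. Of 4 Schwann and neural crest markers, 3 had a probe, and 0 were well above background on any array, the cordyceps array included.

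Of the receptors that act as decoys, TNFRSF11B differed most from vehicle. TNFRSF11B, or osteoprotegerin, is a secreted decoy for the ligands RANKL and TRAIL. It was printed at 10 spots on each array, of which 9 were used on the vehicle array. The spots gave a mean of 9639 with vehicle (9151 to 10091), 2187 with cordyceps (2015 to 2385) and 910 with sunitinib (824 to 961). The ranges of the spots did not overlap, and the vehicle spots were the highest. This spread over spots is within 1 array and says nothing of the spread between cultures. The log2 ratio was -1.88 with cordyceps, or 3.69-fold lower, with a limit of 0.13, and 43 of the genes compared (0.291%) were lower still. With sunitinib it was -2.33, or 5.03-fold lower, and 125 genes (0.839%) were lower still. Over the alternatives the ratio stayed between -2.14 and -1.66 with cordyceps and between -3.41 and -2.33 with sunitinib. TNFRSF11B was higher with cordyceps than with sunitinib by 0.45 on the log2 scale, which is beyond its limit of 0.13.

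**Figure D2:**
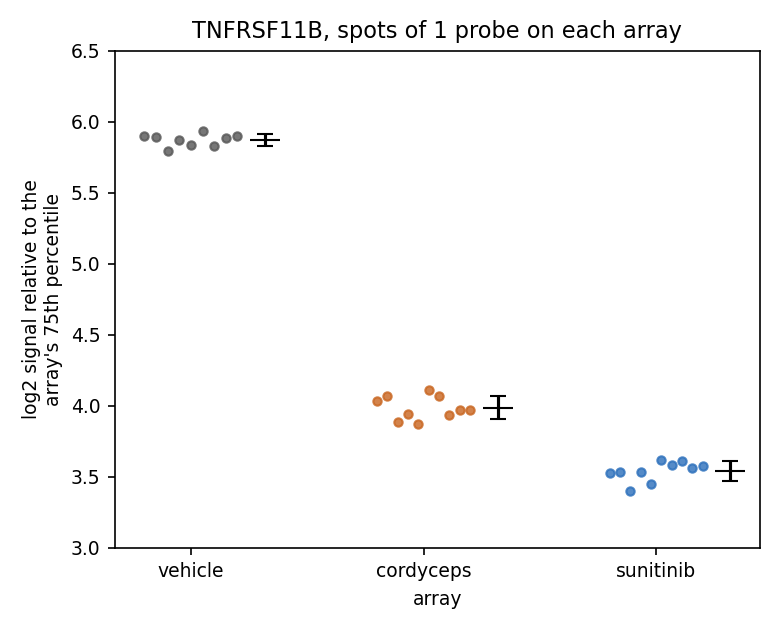
Log2 level of each TNFRSF11B spot on the vehicle, cordyceps and sunitinib arrays, with the mean and standard deviation of the spots used. Each level is relative to the percentile used to scale its array. The vehicle spots lie between 5.80 and 5.94, above the cordyceps spots (3.87 to 4.11) and the sunitinib spots (3.40 to 3.62).

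TNFRSF10D is a membrane decoy for TRAIL with a truncated death domain. It gave 1525 ± 153 with vehicle, 1998 ± 200 with cordyceps and 1097 ± 110 with sunitinib. Its log2 ratio was 0.65 with cordyceps and 0.60 with sunitinib, both beyond the technical limit of 0.40 and both within 2-fold. The sunitinib value turned to -0.47 when the arrays were not scaled, so its direction there depends on the scaling.

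Among the receptors that recruit TRAF adaptors, TNFRSF9, TNFRSF12A and RELT were lower with sunitinib. TNFRSF9, known as 4-1BB or CD137, is a costimulatory receptor best known from activated T cells. Its upstream promoter bases are shown because it went to background on 1 array, with those of LTBR, a receptor for lymphotoxin that stayed near vehicle, and of RELT, an orphan receptor of the family that was lower with sunitinib. The sequences come from RefSeq on GRCh38.p14, and the 250 bases before each start are given 5′ to 3′ along the gene, with capitals for matches on either strand to an NF-κB motif, to the AP-1 motif TGANTCA and to the GC box GGGCGG. TNFRSF9 lies at chr1:7940840-7941089 on the minus strand, LTBR at chr12:6383912-6384161 on the plus strand and RELT, which has more than 1 listed start, at chr11:73376149-73376398 on the plus strand.
TNFRSF9: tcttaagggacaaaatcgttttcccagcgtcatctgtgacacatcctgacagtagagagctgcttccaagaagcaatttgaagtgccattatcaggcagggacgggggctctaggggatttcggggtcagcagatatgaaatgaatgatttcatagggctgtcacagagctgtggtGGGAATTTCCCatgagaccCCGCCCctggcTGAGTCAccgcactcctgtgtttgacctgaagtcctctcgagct
LTBR: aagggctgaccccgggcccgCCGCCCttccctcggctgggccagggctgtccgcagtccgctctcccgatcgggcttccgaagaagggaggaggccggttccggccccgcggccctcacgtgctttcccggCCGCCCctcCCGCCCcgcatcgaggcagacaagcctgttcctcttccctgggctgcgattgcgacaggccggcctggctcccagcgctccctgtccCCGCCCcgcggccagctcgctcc
RELT: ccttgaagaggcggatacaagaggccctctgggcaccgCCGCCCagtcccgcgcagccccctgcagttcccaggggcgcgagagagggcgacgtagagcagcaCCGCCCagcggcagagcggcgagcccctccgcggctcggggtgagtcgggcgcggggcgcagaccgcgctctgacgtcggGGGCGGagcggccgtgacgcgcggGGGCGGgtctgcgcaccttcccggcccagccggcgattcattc
The TNFRSF9 window holds 2 overlapping NF-κB matches, from base 74 to 64 before the start, an AP-1 match from base 44 to 38 and a GC box from base 55 to 50. The LTBR and RELT windows shown hold 4 GC boxes each and neither of the other motifs, and their GC content was 74.8% and 75.6% against 51.6% for TNFRSF9. The window of the other RELT start, at chr11:73376418-73376667, has a GC content of 77.6% and holds 0 GC boxes. No window holds the TATA motif TATAAA. Over all 35097 promoter windows of this length, 9.95% hold the NF-κB motif, 6.57% the AP-1 motif and 42.6% the GC box. A match is a description of the letters and not of a bound site. Promoter entries were matched for 5 of the 10 receptors (TNFRSF9, TNFRSF21, TNFRSF1B, LTBR and RELT).

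TNFRSF9 gave a signal of 204 ± 20.8 with vehicle, 87.6 ± 11.2 with cordyceps and 10.4 ± 4.31 with sunitinib. It was highest with vehicle, and on the sunitinib array it was not well above background. With cordyceps its log2 ratio was -0.96, which is 1.95-fold lower and beyond a limit of 0.46, but just inside the 2-fold limit. With sunitinib it was at least 5.28-fold lower. On the log2 scale this bound is -2.40, and it ran from -3.47 without scaling to -1.03 after normexp correction with its added 50. The cordyceps ratio ran from -1.22 without scaling to -0.56 after normexp correction. TNFSF9, the ligand of TNFRSF9, was also lower with sunitinib, with a log2 ratio of -1.13, and had -0.44 with cordyceps.

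Leukocyte genes were partly present on these arrays. Of 5 leukocyte markers, 3 were well above background with vehicle, 2 with cordyceps and 3 with sunitinib. PTPRC, the leukocyte common antigen, gave 18.4, 12.4 and 45.7, and CD3E of T cells was well above background on none. The sum over the list, relative to the 75th percentile, was 17.2, 14.9 and 23.4, and most of it was CD79A, a B-cell gene, with log2 levels of 3.66, 3.57 and 4.39. CD14, a monocyte gene, ran the other way, at 2.07, 1.44 and 0.57, in the same order as TNFRSF9. The part of these genes in the TNFRSF9 ratio was not tested.

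TNFRSF12A, or Fn14, is the receptor for TWEAK and is found on many epithelial and injured tissues. It gave 32061 ± 3206 with vehicle, 33796 ± 3380 with cordyceps and 4603 ± 460 with sunitinib. Vehicle and cordyceps differed by less than the technical limit, with a log2 ratio of 0.33 against a limit of 0.40, and sunitinib was low. The sunitinib ratio was -1.73, or 3.31-fold lower, and it ran from -2.80 to -1.72 over the alternatives. Its ligand TNFSF12 (TWEAK) had log2 ratios of -0.16 and 0.11.

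RELT gave 1183 ± 118 with vehicle, 1003 ± 101 with cordyceps and 199 ± 20.2 with sunitinib. Its log2 ratio with cordyceps was 0.02, within the technical limit, and its sign turned with the scaling. With sunitinib it was -1.50, or 2.83-fold lower, with a range of -2.57 to -1.49 over the alternatives.

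LTBR gave 1336 ± 134, 1170 ± 117 and 598 ± 59.97 on the vehicle, cordyceps and sunitinib arrays. Its log2 ratios were 0.06 with cordyceps and -0.09 with sunitinib, both within the technical limit of 0.40, so its lower signal on the sunitinib array was in proportion to the 75th percentile of that array. The sign of the cordyceps ratio turned under other scalings, and without any scaling the sunitinib ratio was -1.16. The LTBR spot was covered by a window flagged for a bright streak on the cordyceps array. Of its 48 neighbouring spots, 8 exceeded both other arrays by over 16-fold, but the median log2 excess of the neighbours was -0.16. None of the other receptors had neighbours over 16-fold. LTB, a part of its lymphotoxin ligand, was lower with sunitinib, at -1.65.

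CD40, a costimulatory receptor of antigen-presenting cells, was measured by more than 1 probe. The brighter probe gave 348 ± 35.1, 217 ± 23.3 and 153 ± 16.2 on the vehicle, cordyceps and sunitinib arrays. Its log2 ratios were -0.42 with cordyceps, just beyond a limit of 0.42, and -0.11 with sunitinib. The other probe gave -0.06 and -0.35, so the probes put the larger difference in different comparisons. Over the alternatives the CD40 ratio with cordyceps ran from -0.68 to -0.20, so it was inside the limit under some of them. With sunitinib it ran from -1.18 without scaling, which is past 2-fold, to -0.09. CD40LG, its ligand, was not detected.

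TNFRSF1B, or TNF receptor 2, was well above background on none of the arrays. The brighter of its probes gave 12.4 ± 4.71, 21.2 ± 7.65 and 12.0 ± 4.69, and no ratio was formed. TNF, its ligand, was well above background with vehicle only, and gave no more than a bound.

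**Figure D3:**
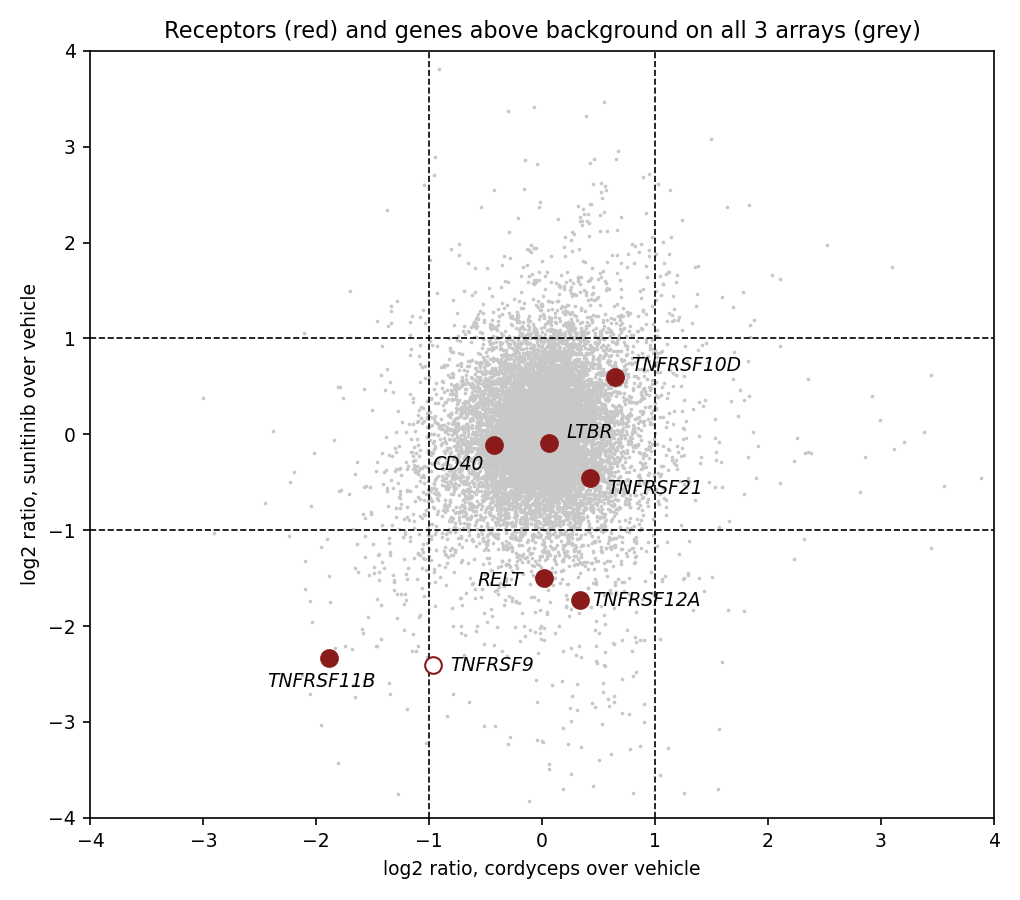
Log2 ratio of cordyceps over vehicle (x axis) against sunitinib over vehicle (y axis) for genes measured on every array (grey) and for the receptors (red), with dashed lines at 2-fold. TNFRSF9 is drawn open because its sunitinib value of -2.40 is a bound, NGFR and TNFRSF1B have no sunitinib ratio and are not drawn, and the axes share the vehicle array. Of 12491 grey genes, 34 lie outside the plotted range.

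The genes of the pathway were read against all genes, of which 5.7% were past 2-fold with cordyceps and 12.9% with sunitinib. Of 19 other TNF receptors, 11 were compared, and 0 were past 2-fold with cordyceps, with a median of 0.13. With sunitinib 1 was higher, 3 were lower and 1 gave no ratio, with a median of -0.17 over the other ones. The lower ones were TNFRSF6B at -2.23 (a secreted decoy for FAS ligand, -1.59 by its other probe), TNFRSF10A at -1.35 (TRAIL receptor 1) and TNFRSF18 at least 2.02-fold lower (GITR, a bound that did not hold under every alternative). TNFRSF10C, another TRAIL decoy, was higher at 1.43, and at 0.36 without scaling.

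Of 18 ligands, 11 were compared. With cordyceps 1 was lower, TNFSF10 (TRAIL, a ligand of the decoys TNFRSF11B and TNFRSF10D) at -1.38 or 2.59-fold lower. The median of the 10 with a ratio was -0.25. With sunitinib 3 were lower, CD70 at -1.79, LTB at -1.65 and TNFSF9 at -1.13, and 1 was higher, TNFSF14 (LIGHT, a ligand of LTBR) at 1.03, a call that held under 8 of 11 alternatives. The median of the 9 with a ratio was -0.56. TNFSF10 itself had a sunitinib ratio of -0.56 by the probe used there and -1.28 by the probe used with cordyceps, so the probes differ on whether it was past 2-fold.

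Of 13 neurotrophins and NGFR partners, 12 had a probe and 8 were compared. With cordyceps 1 was higher, NTRK3, the receptor for neurotrophin 3, at 1.65, from a signal of 21.5 with vehicle and 56.5 with cordyceps. As with NGFR the vehicle signal was close to the lowest detected, and the ratio was 0.70 after normexp correction with its added 50. NTRK2, a receptor for other neurotrophins, was not detected. With sunitinib NTF4 was lower at -1.04, and -0.71 under 1 alternative. The medians were -0.17 with cordyceps and, over the 7 with a ratio, -0.30 with sunitinib.

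All 21 adaptors and proximal signalling genes were compared, and 0 were past 2-fold with cordyceps. With sunitinib BIRC3, an inhibitor of apoptosis that binds TRAF adaptors and is a known target of NF-κB, was lower at -1.73 or 3.33-fold. With cordyceps BIRC3 had -0.23. TRAF1, also a known NF-κB target, had 0.93 with cordyceps and -0.71 with sunitinib, within 2-fold in both. The medians were -0.15 and -0.16, against -0.0090 and -0.024 over all genes. The members of these lists were chosen with earlier results of the arrays known, and their shares are not read as particular to them.

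**Figure D4:**
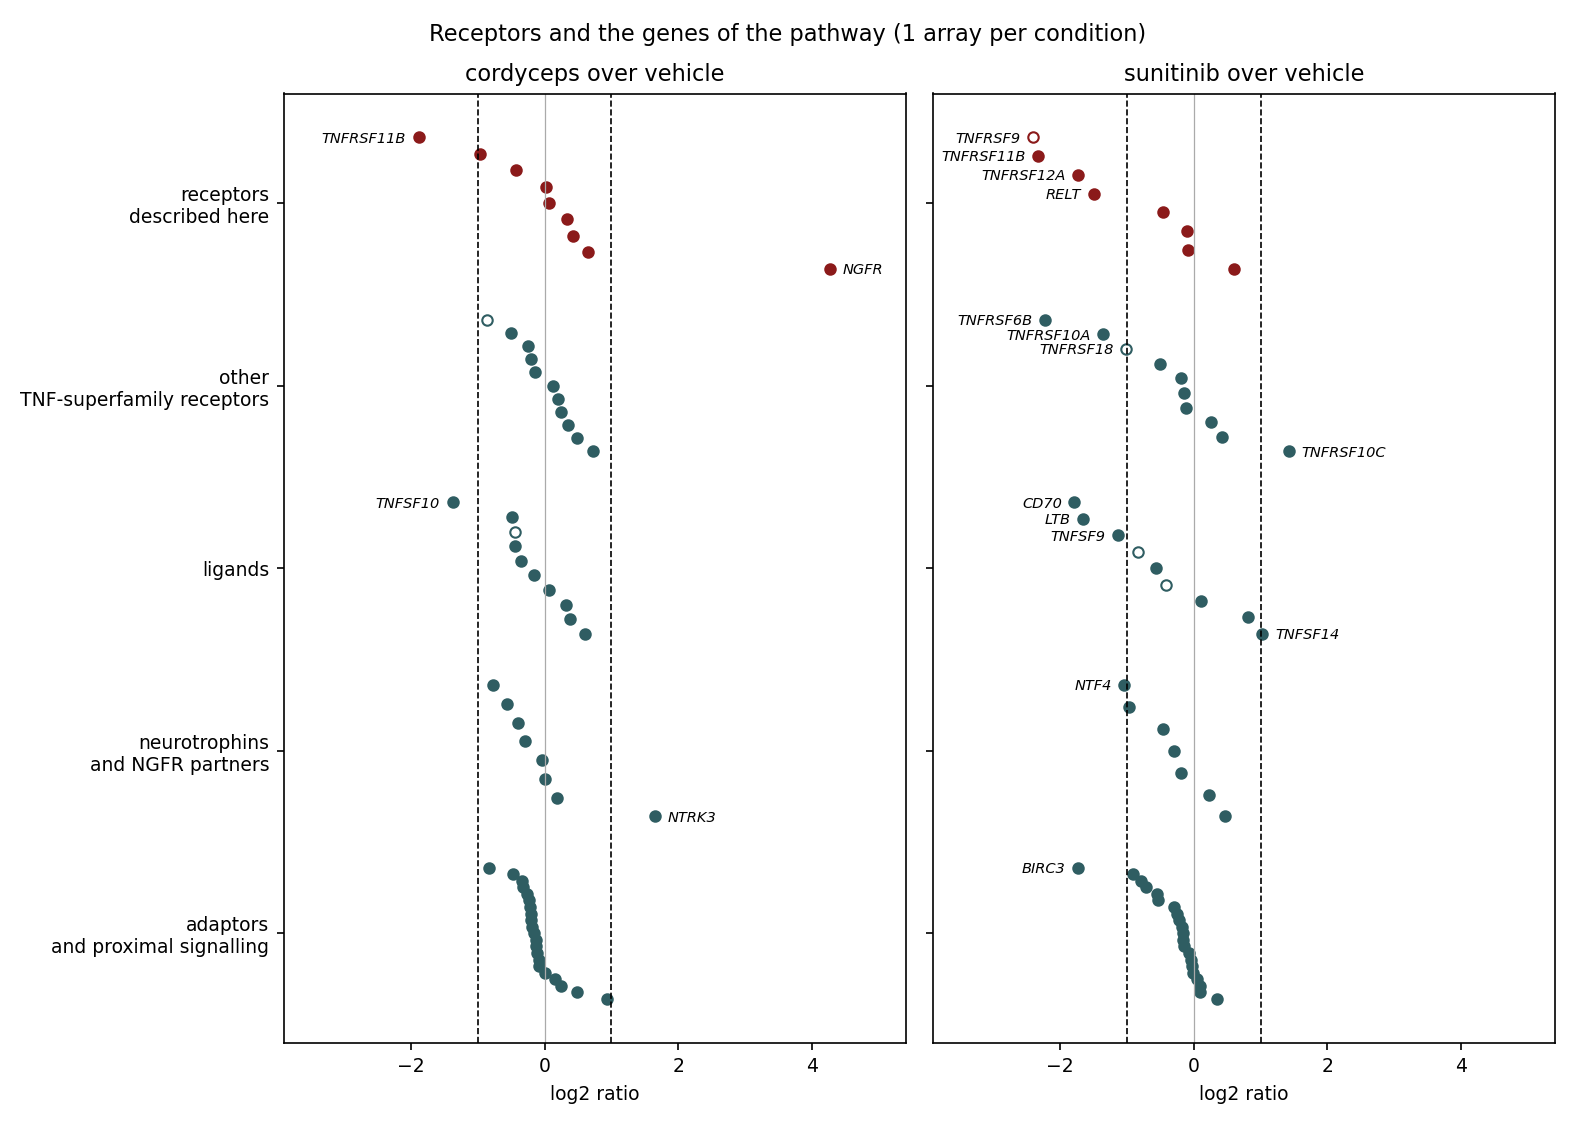
Log2 ratio of each compared gene of the receptors and of the pathway lists, for cordyceps (left) and sunitinib (right) over vehicle, with dashed lines at 2-fold, open points for bounds and names for genes past 2-fold. NGFR at 4.27 is far to the right of every other point on the left, and the receptors past 2-fold on the right all lie to the left.

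**Figure D5:**
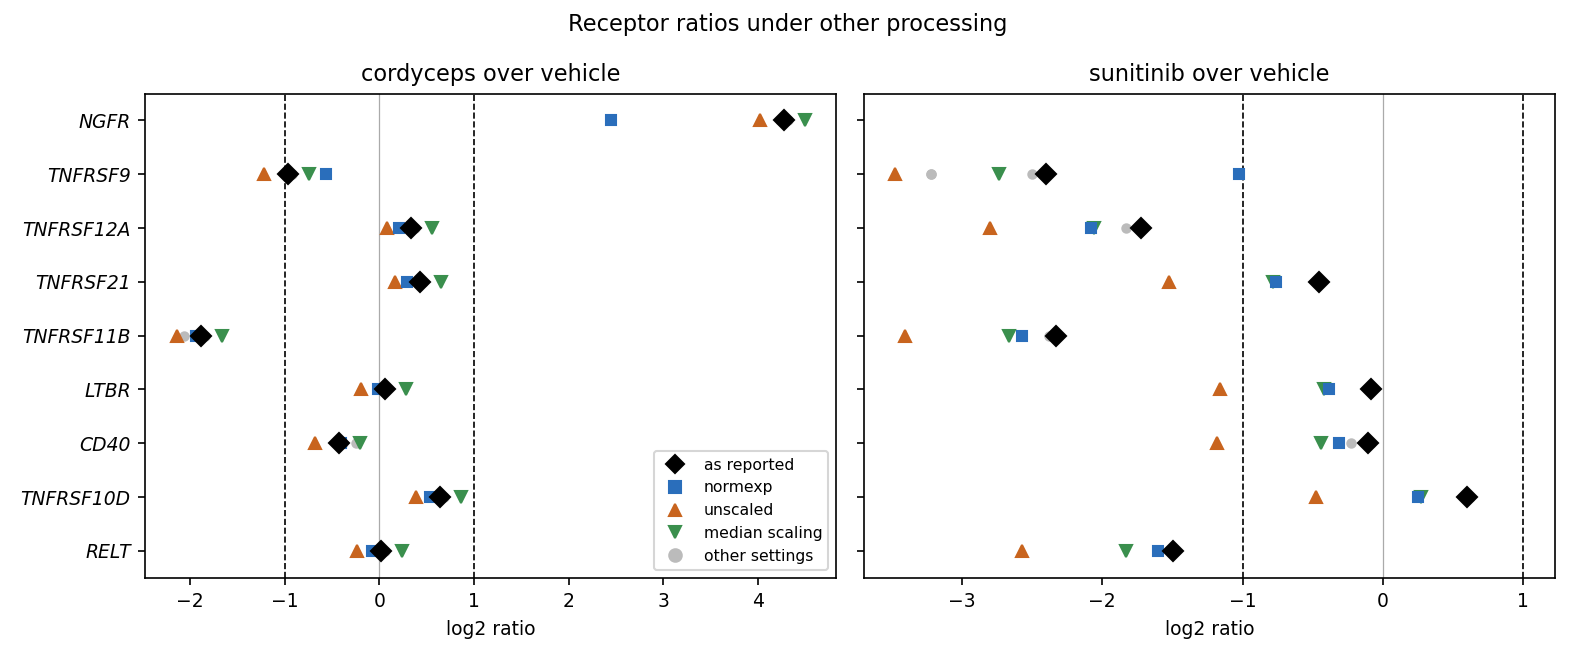
Log2 ratios of the receptors under the processing used (black diamonds) and under each alternative (other markers), for both comparisons. Most points of a receptor lie close together, and the unscaled values with sunitinib lie lowest.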

How the data were processed

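RNA from TK-10 cells was hybridised to single-colour Agilent arrays, 1 per condition, all on 1 slide and scan. The authors used Feature Extraction 11.5.1.1 and deposited for each spot a background-subtracted intensity and an error estimated by the software, together with a table of the same values, equal to them within 0.01% for 99.87% to 99.92% of the probes. The header names build hg19. The methods of the study describe a 2-colour array with other statistics, from which nothing but the 2-fold limit was used.

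The mean processed signal of each probe, without control and outlier spots, was divided by the 75th percentile of its array. The log2 ratio was taken for genes well above background on at least 1 array of a comparison, and a probe not well above background was raised to the lowest detected signal, unless its own was higher, and gives a bound. No ratio was given, and none entered a median, where the detected array was not the brighter after that raising. The brightest probe stood for a gene. Probes were named through RefSeq accessions, giving 31104 named probes and 22439 genes. The receptors, and the genes named from the pathway lists because they passed 2-fold, were chosen with earlier results of these data known. Genes most like NGFR and TNFRSF9 were to be named only if each was well above background on every array, which neither was. Arrays had 45.5%, 37.8% and 38.3% of 58201 probes well above background. Alternatives changed the scaling, background correction, filter, probe choice and spots left out. Scripts were run in Python 3.11.15 with pandas 2.3.3 and numpy 2.4.6, and normexp in limma 3.58.1 under R 4.3.3. The normexp offset was 50, added to every corrected signal.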

Additional observations from a re-analysis of the deposited data

How the results depend on the processing

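Over 11 alternatives the receptors called in the report kept their direction and stayed past 2-fold wherever they had a value, and with 1 array per condition no array could be left out. No paired analysis was possible because each condition has 1 array. With cordyceps, all genes higher and lower were 741 and 221 by median scaling, 269 and 830 unscaled, 191 and 186 by normexp, 1623 and 970 without a filter and 929 and 970 with positive and significant spots. The lower receptors were 2 unscaled, TNFRSF9 being added, and the higher ones 2 without a filter and 2 with positive and significant spots, TNFRSF1B being added from signals near background. With sunitinib, all genes higher and lower were 528 and 1908 by median scaling, 158 and 7971 unscaled, 329 higher by normexp, 6224 and 1485 without a filter and 2389 and 1485 with positive and significant spots. The lower receptors were 7 unscaled, and the higher ones 1 without a filter and 1 with positive and significant spots, again TNFRSF1B. TNFSF14 turned to -0.047 unscaled. The alternatives for the pathway lists were added after seeing the data. Of the receptors' log2 ratios, 18 of 98 with cordyceps and 23 of 86 with sunitinib moved by more than the combined spot error. LTBR had no value without the streak, and TNFRSF9 had none with sunitinib where both arrays had to be above background. Signal over background limits NGFR, TNFRSF9 and NTRK3, whose ratios each involve a signal near the lowest detected. Differences between cultures were not measured.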
